A study of Homo sapiens with 6 samples.

Results

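The DLX genes are a family of 6 homeobox transcription factor genes, DLX1 to DLX6, and the peaks at these genes were examined here in CUT&RUN data for MYT1L, a zinc-finger transcription factor found in nearly all neurons. The members were fixed by name, and a peak was assigned to them when it shared at least 1 bp with a DLX gene body, the 20 kb beyond either end, or the stretch between the genes of a pair. The 6 genes are 6 of 20037 protein-coding genes in the gene table, and 17 MYT1L peaks lay at them, which merged into 12 of the 49028 MYT1L regions of the series. All libraries came from wild-type H1, an established line of human embryonic stem cells, with day 30 as the time point; the labels say WT and name no other allele or agent. In CUT&RUN a nuclease is tethered to an antibody bound on chromatin, and the DNA it releases is sequenced. MYT1L was targeted in 4 libraries, and 2 further libraries made with IgG served as the negative control. The series text describes the cells as cortical interneurons made from the stem cells, while the label for cell type gives the starting cells. Peak lists carry no expression values, so the cell type could not be checked against markers. All libraries share 1 cell line, and nothing says whether they came from separate cultures, so differences between them may be technical.

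DLX proteins bind DNA through a homeodomain, and the genes sit as 3 neighbouring pairs whose members are transcribed toward each other. DLX1, DLX2, DLX5 and DLX6 act in the ganglionic eminences, the ventral forebrain zones where GABAergic interneurons are born, and DLX1 and DLX2 are needed there for interneuron production and migration. DLX3 and DLX4 are known mainly from skin, hair, tooth and placenta. Conserved enhancers are known from the stretches between the genes of the forebrain pairs. MYT1L is known for repressing genes of other cell fates in neurons.

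On chromosomes 1 to 22, X and Y the MYT1L libraries held 27926, 12310, 18966 and 30086 peaks in replicates 1 to 4, and the IgG libraries 976 and 998. Replicate numbers follow the titles, although the numbers inside the peak names of the MYT1L lists are each 1 higher. The fold of a peak is the authors' own value, its summit signal over the local background, and is used here to describe peaks within a list. Fragment numbers at a summit (the pileup) and the background were estimated from the deposited fold and p-value by the formulas of the peak caller. The genome-wide background was 1.18, 0.421, 1.05 and 0.895 fragments in MYT1L replicates 1 to 4 and 0.329 and 0.190 in IgG replicates 1 and 2, so each IgG library was shallower than every MYT1L library. In the lists as deposited, MYT1L replicate 4, the longest list, stands apart at the DLX loci: it supplied 10 of the 17 peaks. Results that rest on it are given without it as well.

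The region with the widest support at any DLX gene covered the start of DLX2, and the RefSeq promoter window of this gene (GRCh38.p14, chr2:172102851-172103150, minus strand) is shown because peaks of 3 MYT1L libraries overlapped it. Capitals mark the 39 bases that lay under all 3 peaks. They lie inside the gene, since the peak of replicate 1 ended at 172102889, short of the start at 172102900. The promoter window of DLX1 (chr2:172085257-172085556, plus strand) is shown for comparison, since a peak of MYT1L replicate 4 alone reached into it; there the capitals mark the 87 bases under that peak.
DLX2: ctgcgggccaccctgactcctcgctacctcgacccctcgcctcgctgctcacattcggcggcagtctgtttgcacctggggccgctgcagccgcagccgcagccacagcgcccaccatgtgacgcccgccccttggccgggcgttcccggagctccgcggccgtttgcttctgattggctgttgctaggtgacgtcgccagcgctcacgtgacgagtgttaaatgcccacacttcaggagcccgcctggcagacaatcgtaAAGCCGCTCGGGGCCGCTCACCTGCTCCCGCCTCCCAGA
DLX1: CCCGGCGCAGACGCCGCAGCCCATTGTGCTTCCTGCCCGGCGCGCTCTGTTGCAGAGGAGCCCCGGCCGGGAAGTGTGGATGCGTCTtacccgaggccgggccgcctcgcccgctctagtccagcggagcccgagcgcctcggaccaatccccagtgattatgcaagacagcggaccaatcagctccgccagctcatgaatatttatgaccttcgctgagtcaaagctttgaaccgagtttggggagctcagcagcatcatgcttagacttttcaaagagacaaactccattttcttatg

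Each window runs from 250 bases before the gene's start to 50 after it. Of the 6 genes, DLX1, DLX2 and DLX6 had an entry in the promoter table. GC content was 67.7% in the DLX2 window, 59.0% in that of DLX1 and 67.0% in that of DLX6, beside a median of 58.7% over 35116 promoters. Neither AAGTT, the core recognised by MYT1-family zinc fingers, nor the longer AAAGTTT, which contains it, was found on either strand of the DLX1 and DLX2 windows. AAGTT occurs in 34.0% of all promoters and AAAGTTT in 4.28%. The DLX6 window held 1 AAGTT match, on its opposite strand at position 294 counted from the window's first base, and no AAAGTTT. The common homeodomain core TAATT was in none of the 3 windows and in 24.8% of all promoters. No match says only that these letters are not in these windows. No DLX peak had its summit inside them, and the sequences under the summits were not analysed here.

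MYT1L peaks at the DLX loci were few in 3 libraries and more numerous in the fourth. MYT1L replicates 1 to 4 had 3, 2, 2 and 10 peaks there, and each IgG library had 0. The groups did not overlap. The mean was 4.25 ± 3.86 peaks (SD, n = 4) against 0 (n = 2), a difference of 4.25 (two-sided exact permutation test over libraries, p = 0.133, which is the lowest value 4 against 2 libraries can reach). Without replicate 4 the difference was 2.33. The peaks covered 1147, 970, 443 and 3910 bp in MYT1L replicates 1 to 4.

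IgG peaks were rare everywhere. At the mean density of its list over the chromosomes, IgG replicate 1 would have 0.0580 peaks in windows of this size and IgG replicate 2 would have 0.0593. Depth also differs between the groups. Thinned to the depth of IgG replicate 1, the MYT1L peaks at the DLX loci were expected to number 0.269, 1.73, 0.221 and 2.38 in replicates 1 to 4, and at the depth of IgG replicate 2 they were expected to number 0.0854, 0.815, 0.103 and 0.812. At these loci the antibody cannot be told apart from the depth and this cutoff.

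Relative to the density of each list over the chromosomes, the DLX windows held 1.81, 2.74, 1.78 and 5.60 times as many peaks in MYT1L replicates 1 to 4 (mean 2.98 ± 1.80, SD, n = 4). The ratio was above 1 in all 4 libraries, and its mean was 2.11 without replicate 4. With each MYT1L list limited to its 12310 peaks of highest −log10 q, the length of the shortest list, the ratio was 1.37 in replicates 1, 3 and 4 and 2.74 in replicate 2. It sets windows around genes against whole chromosomes, so it is not a contrast with other genes.

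**Figure D1:**
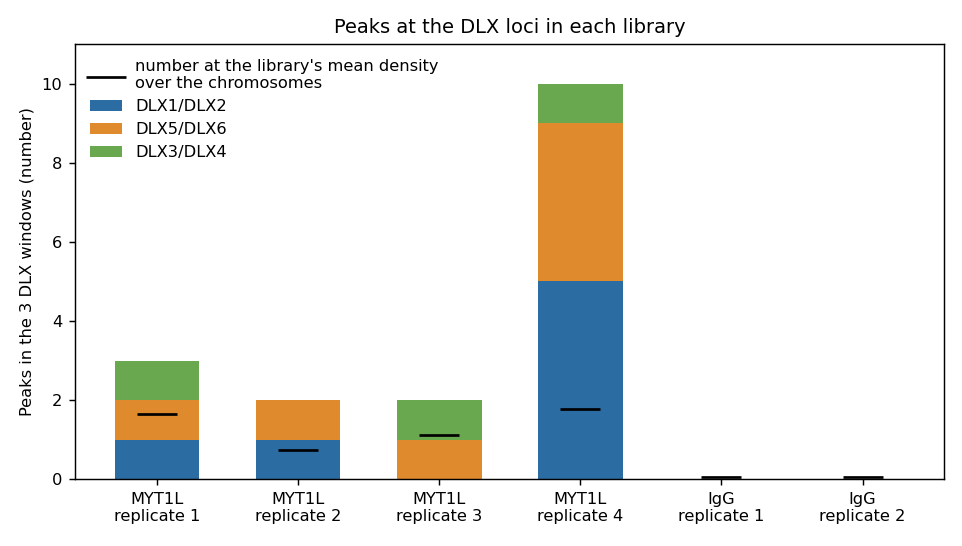
Number of peaks (vertical axis) in the windows of the 3 DLX pairs for each of the 6 libraries, stacked by pair, with a black dash at the number that the library's mean density over the chromosomes would give. MYT1L replicate 4 reaches 10 peaks, the other MYT1L libraries 2 or 3, and both IgG libraries 0.

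The higher count of replicate 4 was absent with lists of equal length and present with a −log10 q of at least 5. Replicate 4 had the longest list, 30086 peaks, and a genome-wide background of 0.895 fragments, below those of replicates 1 and 3. With the 12310 peaks of highest −log10 q from each MYT1L list, the DLX loci held 1 peak in each of replicates 1, 3 and 4 and 2 in replicate 2, so replicate 4 was not above the others. At a −log10 q of at least 5, replicate 4 held 5 DLX peaks, and replicates 1, 2 and 3 held 1 each. Thinned to the depth of replicate 2, the shallowest MYT1L library, and held to its lowest −log10 p, replicate 4 was expected to hold 4.85 DLX peaks. Replicate 2 had 2. Thinned to the depth of replicate 4 in the same way, replicates 1 and 3 were expected to hold 2.11 and 1.93 DLX peaks, where replicate 4 had 10. In the full lists replicate 4 alone supplied 6 of the 8 DLX regions seen in a single library, whereas it supplied 39.5% of such regions over the chromosomes. What else moves with the count of replicate 4 was not tested.

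DLX2, a regulator of interneuron production, had the single DLX region found in at least 3 MYT1L libraries. This region, chr2:172102289-172103193, ran from inside DLX2 across its start into the first bases of DLX2-DT, a noncoding RNA gene on the far side of the promoter. Its fold was 3.69 in MYT1L replicate 1, 6.05 in replicate 2 and 4.14 in replicate 4, a mean of 4.63 ± 1.25 (SD, n = 3), and replicate 3 and both IgG libraries had no peak. The estimated pileup at its summits was 15, 15 and 22 fragments in replicates 1, 2 and 4. The peaks of replicates 2 and 4 crossed the DLX2 start, and that of replicate 1 ended inside the gene.

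The 3 summits did not coincide. They lay downstream of the DLX2 start by 222 bp in replicate 1, 106 bp in replicate 2 and 511 bp in replicate 4, a spread of 405 bp. When summits within 200 bp of each other were required in place of overlapping peaks, no DLX region had 3 libraries. A second peak of replicate 4 lay further inside DLX2, 1056 bp downstream of the start, with a fold of 3.01, the lowest among the DLX peaks.

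DLX1, its partner in the same lineage, had no peak in MYT1L replicates 1, 2 and 3 within 5 kb of either end, and 2 in replicate 4. The first had its summit 251 bp upstream of the DLX1 start, with a fold of 5.42 and a pileup of 34 fragments, the highest pileup at any DLX gene. The second lay 310 bp downstream of the start, with a fold of 3.30. These peaks flank the start of DLX1 and rest on 1 library. Replicate 4 also had the only peak in the stretch between DLX1 and DLX2, at chr2:172095421-172095756, 3858 bp from the nearest DLX2 end, with a fold of 5.003.

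**Figure D2:**
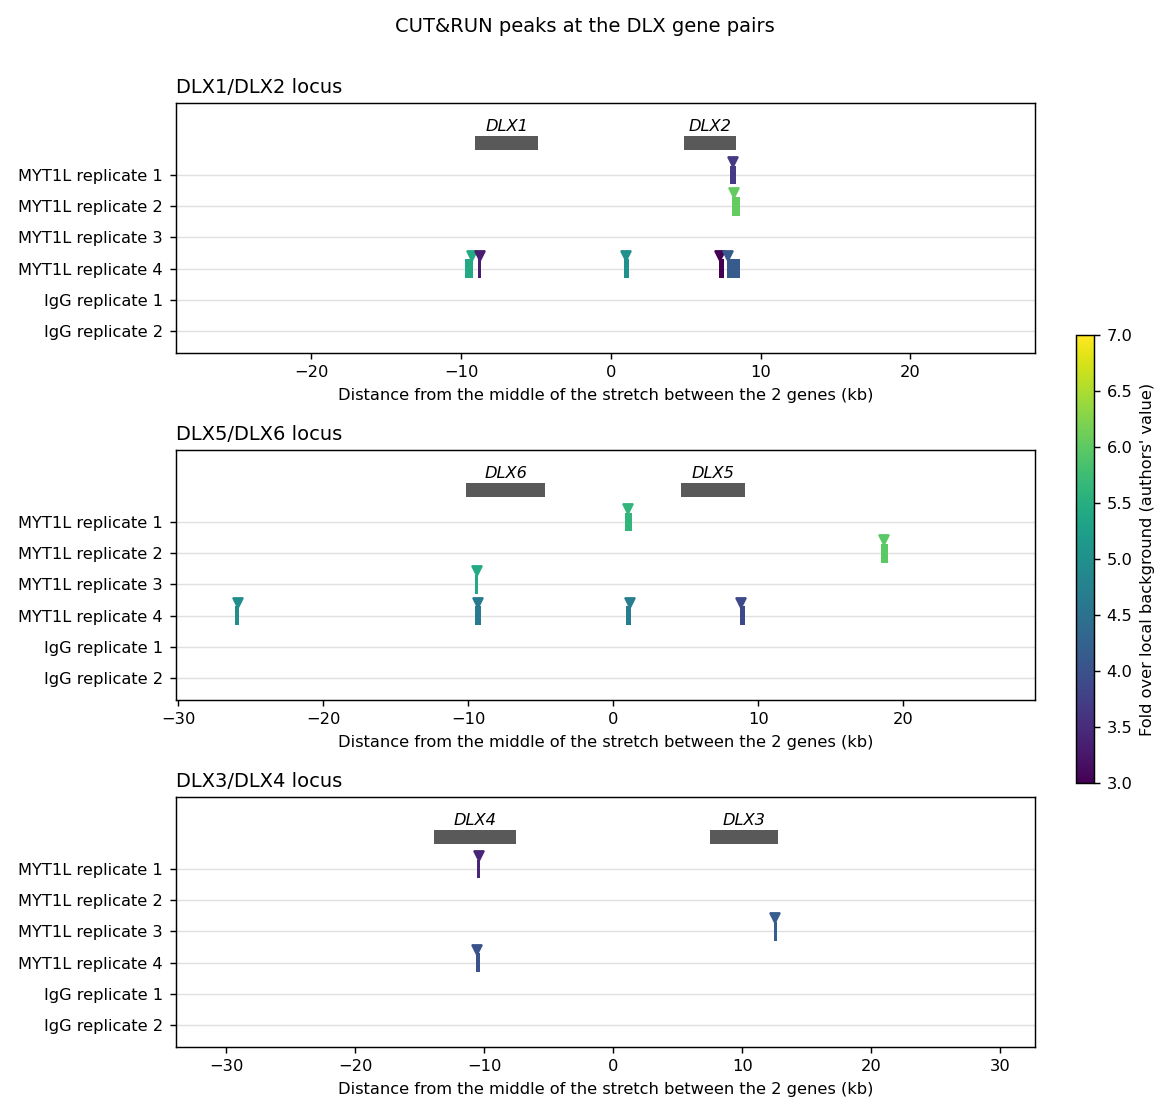
Peaks of the 6 libraries (rows) around the 3 DLX pairs, drawn to scale by their distance in kb from the middle of the stretch between the genes; boxes above are gene bodies, bars are peaks, triangles their summits, and colour gives the fold over local background. Peaks of 3 libraries overlap at DLX2, those of 2 libraries overlap in DLX6, between DLX6 and DLX5 and in DLX4, and the IgG rows are empty.

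DLX5 and DLX6, which act downstream of DLX1 and DLX2 in forebrain interneurons, shared no region found in 3 libraries, but had 2 regions found in 2 libraries each. The first, chr7:97006182-97006615, lay in the body of DLX6 and also within DLX6-AS1, a long noncoding RNA gene that spans DLX6. Its fold was 5.41 in MYT1L replicate 3 and 4.64 in replicate 4 (mean 5.02 ± 0.547, SD, n = 2), with summits 800 and 871 bp downstream of the DLX6 start. These summits lay 71 bp apart, the closest agreement among the DLX regions.

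The other shared region, chr7:97016518-97016977, lay in the stretch between DLX6 and DLX5, the kind of position where enhancers of this pair are known; whether it coincides with one was not tested. Its fold was 5.62 in MYT1L replicate 1 and 4.68 in replicate 4 (mean 5.15 ± 0.661, SD, n = 2), and its summits were 125 bp apart. Replicates 2 and 3 had no peak there.

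Single-library peaks made up the rest of this locus. In replicate 4 a peak with a fold of 3.86 lay in DLX5, 308 bp from its upper end, which by the arrangement of the pair is where DLX5 transcription starts. A peak of replicate 4 with a fold of 4.95 lay in DLX6-AS1, 15733 bp outside DLX6. Replicate 2 had its single peak of the locus 9530 bp beyond the upper end of DLX5, with a fold of 5.98 and a pileup of 8 fragments, the lowest pileup among the DLX peaks. Each MYT1L library thus had a peak at this locus, but no position was shared by more than 2.

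DLX3 and DLX4, the pair known mainly outside the brain, had peaks in 3 MYT1L libraries, 1 in each. The region in DLX4, chr17:49971847-49972191, had a fold of 3.43 in MYT1L replicate 1 and 4.02 in replicate 4 (mean 3.73 ± 0.417, SD, n = 2), with summits 210 bp apart. It lay 2860 and 3070 bp from the upper end of DLX4. In DLX3, replicate 3 had 1 peak with a fold of 4.16, 162 bp from the upper end of the gene. By the arrangement of the pair, that end is where DLX3 transcription starts. Replicate 2 had no peak at this locus.

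Because the windows differ in length (57.4 kb for DLX1 and DLX2, 59.3 kb for DLX5 and DLX6, 66.7 kb for DLX3 and DLX4), the pairs were compared by peaks per 10 kb within each MYT1L library. DLX1 and DLX2 had 0.174, 0.174, 0 and 0.871 peaks per 10 kb in replicates 1 to 4. DLX5 and DLX6 had 0.169 in replicates 1, 2 and 3 and 0.675 in replicate 4. DLX3 and DLX4 had 0.150 in replicates 1, 3 and 4 and 0 in replicate 2. The forebrain pairs stood above DLX3 and DLX4 mainly through replicate 4.

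Each mean difference between pairs was smaller than its SD over the libraries, and with 4 libraries the permutation test cannot reach 0.05. DLX5 and DLX6 exceeded DLX3 and DLX4 by 0.183 ± 0.239 peaks per 10 kb on average (SD, n = 4; exact sign-flip permutation test, two-sided, p = 0.125, the smallest 4 libraries allow, adjusted p = 0.375 over 3 comparisons), and by 0.0687 without replicate 4. In replicates 1 and 3 both of these loci held 1 peak, so the sign of the difference there, on which this p also rests, came from the shorter window of DLX5 and DLX6. DLX1 and DLX2 exceeded DLX3 and DLX4 by 0.192 ± 0.377 on average (same exact permutation test, p = 0.375, adjusted p = 0.5625), and by 0.0161 without replicate 4. DLX5 and DLX6 minus DLX1 and DLX2 gave -0.00970 ± 0.149 (same exact permutation test, p = 0.625, adjusted p = 0.625). Without replicate 4 these last 2 pairs were in the opposite order, with a difference of 0.0525. A test of this size that misses the threshold does not show that the pairs are alike.

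Within their own lists the DLX peaks were of middling to low strength. Over the 17 peaks the fold ranged from 3.01 to 6.05 with a median of 4.64, beside list medians of 4.92, 5.56, 5.17 and 5.55 in MYT1L replicates 1 to 4. Of the 17, 6 had a −log10 q above the median of their list: 1 of 3, 2 of 2, 1 of 2 and 2 of 10 in MYT1L replicates 1 to 4. The highest −log10 q, at the peak upstream of DLX1 in replicate 4, stood at 13.4. In replicate 4 no DLX fold stood above percentile 48.1 of its list. In replicates 1 to 3 the fold percentiles ran from 3.75 to 70.9. The deposited −log10 q was at least 5 for 8 peaks, 5 of them in replicate 4 and 1 in each of replicates 1, 2 and 3.

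The background around the DLX1 and DLX2 peaks was high. It was 2.81 times the genome-wide background in MYT1L replicate 1, 3.91 times in replicate 2 and 4.47 to 6.34 times over the 5 peaks of replicate 4, beside medians over all peaks of 1.54, 1.78 and 2.15 times in those libraries. In this measure the 7 peaks of this locus lay between percentiles 86.5 and 95.7 of their lists. At DLX5 and DLX6 the ratio ran from 1.14 to 3.94, between percentiles 20.5 and 83.1 of their lists. At DLX3 and DLX4 it ran from 1.80 to 2.77, between percentiles 64.9 and 78.7, so these peaks too lay above their list medians. Since fold is taken over the local background, the DLX1 and DLX2 peaks have a lower fold than their pileup over the genome-wide background would give.

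**Figure D3:**
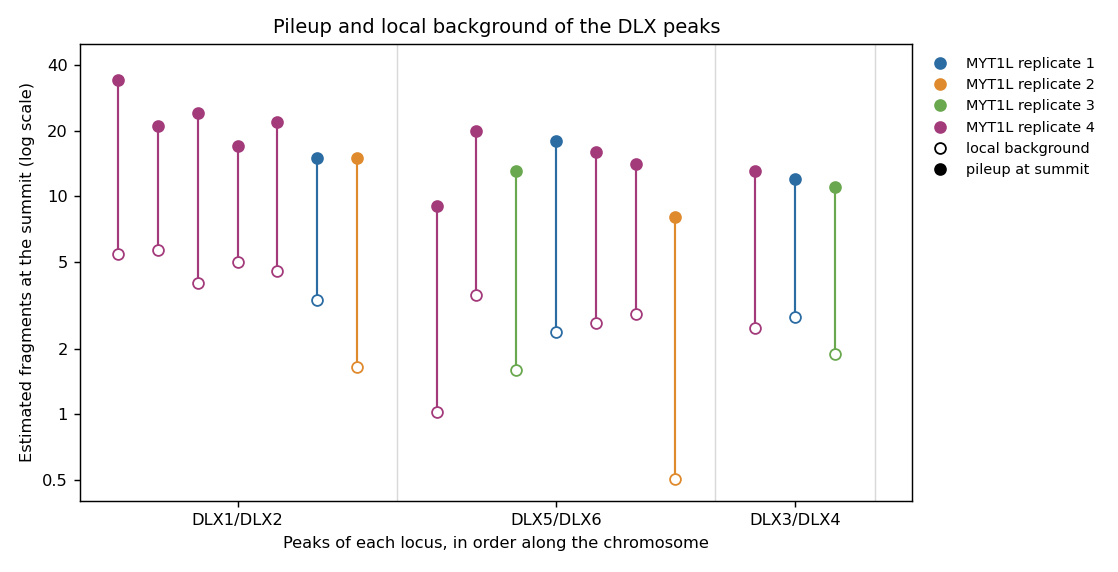
Estimated fragments at the summit (filled) and in the local background (open) for each of the 17 DLX peaks, on a log axis, grouped by locus and coloured by library. Pileups run from 8 to 34 fragments, and the open points are highest among the DLX1 and DLX2 peaks of replicate 4.

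Support for the DLX genes was next set beside that of all protein-coding genes. All 6 DLX genes had a MYT1L peak in at least 1 library within 20 kb, as did 91.3% of all genes. All 6 also had a region shared by at least 2 libraries with no IgG peak, against 75.7% of all genes, and none had an IgG peak within 20 kb, against 5.79% of all genes with one. A region in at least 3 libraries without an IgG peak, called reproducible here, was within 20 kb of 2 of the 6 genes, DLX1 and DLX2, which share it. The same rule called 58.4% of all genes, and 43.5% of the 3989 genes no longer than the longest DLX gene (6388 bp). With 1 MYT1L library left out and 2 of the other 3 required, 4 DLX genes had such a region without replicate 1, 6 without replicate 2, 6 without replicate 3 and 2 without replicate 4. The share of all genes under that rule is not given here, and the 58.4% and 43.5% belong to another rule. Nothing is read from these counts.

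Within 5 kb of either end the reproducible region remained at DLX2 alone, 1 of 6, beside 48% of all genes. The DLX genes had a median of 4 regions within 20 kb, beside 2 for the genes of up to 6388 bp. Yet 1 of the 12 DLX regions (8.33%) was in at least 3 libraries, beside 25.1% of all regions. DLX1 and DLX2 each had 5 regions and DLX5 and DLX6 each had 4, whereas DLX3 had 2 and DLX4 had 1. Of the 12 DLX regions, 6 came from replicate 4 alone, so the median of 4 and the higher numbers at the forebrain pairs depend on that library. At DLX1 and DLX2, 4 of the 5 regions were in 1 library, each time replicate 4. The median without replicate 4 is not given here. Genes of a pair share window and peaks, so the 6 genes are not 6 independent cases.

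**Figure D4:**
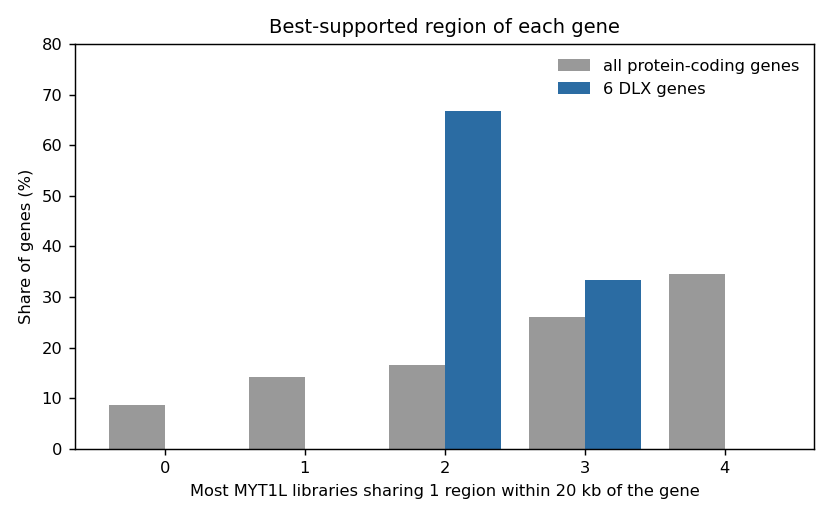
Share of genes in percent (vertical axis) by the largest number of MYT1L libraries that share 1 region within 20 kb (horizontal axis), for all protein-coding genes and for the 6 DLX genes. The DLX genes fall at 2 libraries (4 genes) and 3 libraries (2 genes), while 34.5% of all genes have a region in all 4.

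Few peaks lay near the edge of the windows. The outermost peak inside the windows lay 15733 bp from DLX6 (fold 4.95), and the next beyond them lay 25.9 kb above DLX5 in replicate 4 (fold 4.75). Around DLX3 and DLX4 the nearest peaks beyond the windows were 32.2 and 32.6 kb above DLX3, in replicates 1 and 4 (fold 4.45 and 4.35), and 33.4 kb below DLX4 in replicate 1 (fold 3.48).

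Of 30 genes known as regulators or targets of DLX factors or as their fellow regulators in GABAergic interneurons, 11 (36.7%) had a reproducible region within 20 kb, beside the 58.4% of all genes; 9 of the 30 were no longer than 6388 bp, and 3 of these had one, beside 43.5%. No gene of the list had an IgG peak in reach. Among 7 fellow regulators of the ventral forebrain, 2 had such a region: NKX2-1, the determinant of the medial eminence (fold 4.01 ± 0.159, SD, n = 3), and SP8, a factor of the lateral and caudal eminences (4.72 ± 1.06, n = 3). GSX1 and GSX2, homeobox genes upstream of DLX, had none, and SP9, MEIS2 and OLIG2 had none. At NKX2-1 and SP8 the best region was in 3 libraries, as at DLX2.

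Among 8 transcription factors acting after DLX genes, 4 had a reproducible region: ZEB2, which directs interneurons to the cortex (5.39 ± 1.0, n = 3), MAF (5.78 ± 2.11, n = 3), SOX6 (6.27 ± 0.870, n = 3) and PROX1 (5.64 ± 1.04, n = 3). LHX6, LHX8, SATB1 and NPAS1 had none. SOX6, at 772 kb, and MAF, at 398 kb as annotated, are long genes with more room for a region. The regions given for them lay 0.178 and 0.762 kb from the nearest end of the gene. Whether length plays a part was not tested.

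Of the 3 GABA genes, SLC32A1, the vesicular GABA transporter, had a region in all 4 libraries (8.76 ± 1.59, n = 4), 19.0 kb from the gene, while GAD1 and GAD2, which make GABA, had none. Among 7 migration and cytoskeleton genes 3 had one, namely NRP1 (6.20 ± 0.713, n = 4), NRP2 (5.98 ± 0.512, n = 3) and MAP2 (8.26 ± 1.90, n = 3); the neuropilins are semaphorin receptors, and MAP2 is a dendritic microtubule protein. CXCR4, ACKR3, ERBB4 and PAK3 had none. Of 5 subtype genes, RELN had one (5.85 ± 0.791, n = 4), SST, NPY and CALB2 had none, and VIP had no region at all. This list was assembled by hand, and nothing is read from its share.

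The pattern at DLX1 and DLX2, taken as the highest fold within 20 kb in each of the 6 libraries (3.69, 6.05, 0 and 5.42 in MYT1L replicates 1 to 4 and 0 in both IgG libraries, the same for both genes), was most like that of MEX3B, GNB1, LHX2, KLK15 and DRC4. Their Euclidean distances to it were 0.326, 0.391, 0.441, 0.507 and 0.569 on the fold scale over the 6 libraries. The pattern joins different positions. In replicates 1 and 2 the highest fold was in the region at DLX2, and in replicate 4 it was upstream of DLX1. At the DLX2 region replicate 4 had a fold of 4.14.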

How the data were processed

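Peak lists from 4 MYT1L and 2 IgG CUT&RUN libraries of H1-derived cells were used. Peaks were called with MACS2 on hg38, per the submitters' processing notes; the version, aligner, threshold and control are not given in the sources used here. Each deposited peak has a fold (a ratio over local background), a −log10 p and −log10 q and a score, all as the authors' caller wrote them. Depth is unknown in reads. Whole pileups and backgrounds were estimated from the deposited fold = (pileup + 1) / (background + 1) and its Poisson p; within 0.0002 this matched at least 99.9% of peaks with a −log10 p up to 200 in every library. A thinned peak counted when it reached the lowest −log10 p of the library it was thinned to. The recovery, the thinning and the merging were tested on simulated data. Peaks on chromosomes 1 to 22, X and Y sharing at least 1 bp were merged across MYT1L libraries into regions; reproducible means a peak in at least 3 of 4 libraries and no IgG peak. Gene positions and promoters are RefSeq's, GRCh38.p14. Chromosome length, 3087 Mb in all, was taken as the highest coordinate in the gene table or the lists. Peak numbers were compared by exact permutation over libraries, loci within libraries by exact sign-flip permutation with Benjamini-Hochberg adjustment. All 6 DLX genes are named whatever their values, and of 30 further genes those with a reproducible region are given with values; some genes planned for that list are not reported here. The members and lists were chosen with earlier results of these data known. Python 3.11.15, SciPy 1.17.1 and pandas 2.3.3 were used. A planned comparison of homeodomain proteins was not run. Alternatives were a −log10 q of at least 5, equal list lengths, reaches of 5 and 50 kb, summits in place of peaks, other library numbers and leaving out each library.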

Additional observations from a re-analysis of the deposited data

Results flagged for a closer look

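Among 6 quantities screened over the 4 MYT1L libraries, 3 had a library far from the other 3. Chance would mark about 1 group in 20 for continuous values; these are small counts with ties, and 2 of the 3 cases have 3 equal libraries, so that rate does not apply to them. MYT1L replicate 4 had the highest number of peaks at the DLX loci, 10, against 2 or 3 in the others. With equal list lengths it had 1, and with a −log10 q of at least 5 it had 5, against 1 in each of the others. Replicate 4 also had the highest density at DLX5 and DLX6, 0.675 peaks per 10 kb, where the other 3 libraries each had 0.169. MYT1L replicate 2, the shallowest, had the lowest density at DLX3 and DLX4, 0 peaks per 10 kb, where the other 3 each had 0.150 from 1 peak.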

How the results depend on the processing

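Every alternative was planned. The MYT1L group had more DLX peaks than the IgG group in all 12 alternatives (difference 1.25 to 5.25), although the permutation test cannot pass 0.05 in this design. With no IgG peak at these loci, any MYT1L peak gives this sign, so the alternatives could hardly have changed it. None of them made list length or depth equal between the groups. The number of reproducible DLX regions, 1, and of DLX genes with one in reach, 2, depended most on the settings. Both were 0 with a −log10 q of at least 5, with equal list lengths, with all 4 libraries required and with summits within 200 bp. They were 4 and 6 with at least 2 libraries, a rule that called 75.7% of all genes. With a reach of 5 kb 1 gene remained. Leaving out each library in turn gave 1 to 4 regions and 2 to 6 genes, where 2 of 3 MYT1L libraries sufficed. There were 2, 4, 3 and 1 regions without MYT1L replicates 1 to 4 in turn. The share of all genes under the rule of 2 of 3 is not given here. Fewer peaks or another number of libraries is part of each of these settings. The density relative to the chromosomes, 2.98, was 4.91 with a reach of 5 kb and 1.71 to 3.38 in the other 8 alternatives. The difference of DLX5 and DLX6 from DLX1 and DLX2, -0.00970 peaks per 10 kb, changed sign with equal list lengths (0.0394) and a reach of 50 kb (0.0186), was -0.212 with a reach of 5 kb, and ran from -0.0692 to 0.0525 without one library; the cause was not tested. The other differences between loci kept their sign in 9 alternatives each, from 0.0492 to 0.237 for DLX5 and DLX6 minus DLX3 and DLX4 and from 0.0161 to 0.434 for DLX1 and DLX2 minus DLX3 and DLX4.

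With the replicate block, pairing MYT1L and IgG replicates 1 and 2 by number, the difference in DLX peaks was 2.5 (two-sided exact permutation test over 2 pairs, p = 0.5, the lowest they can give). The labels do not say that a number marks a shared culture, and with 2 pairs and no IgG peak whether the numbers pair the libraries could not be checked.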
